A study of Mus musculus with 78 samples.

Results

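The mouse blastocyst at embryonic day 3.5 (E3.5) holds an inner cell mass (ICM), from which the fetus and the yolk sac endoderm arise, inside a shell of trophectoderm (TE), which makes the fetal part of the placenta. The comparison set 2 ICM libraries against 2 TE libraries, 4 of the 78 samples of the series and 4 of its 30 expression libraries. Members were all genes of the expression table except symbols turned into dates or repeated, which left 22586 genes, of which 12874 reached 1 FPKM in at least 2 of the 22 in vivo libraries and were tested. FPKM is the number of fragments scaled by transcript length and by the mapped total of the library. The series followed DNA methylation, expression and chromatin folding from the blastocyst to gastrulation.

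Both tissues came from embryos of superovulated C57BL/6N mothers and DBA/2N fathers. The zona pellucida was removed, ICM and TE were obtained by immunosurgery, in which antibody and complement lyse the outer cells, and each was lysed without an RNA purification step. The outer cells are those of TE, so the tissues may have been handled differently, and handling and tissue cannot be told apart here. Libraries were made by Smart-Seq2, a full-length protocol for few cells. As a later point of reference, the same fit held 2 libraries of epiblast (Epi) and 2 of visceral endoderm (VE) at E5.5, from natural matings of the same strains and with column-purified RNA. Its other groups, with 2 libraries each, were E4.0 ICM, E6.5 Epi and VE, and E7.5 ectoderm, primitive streak, mesoderm and endoderm. All of them entered the estimate of the spread. How many embryos went into a library, whether replicates came from separate litters, and whether ICM and TE came from the same embryos is not given in the sources used here, so p-values measure only the spread between these libraries. In pools of cells, fewer cells of a type and less RNA per cell cannot be told apart.

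TE is the first epithelium of the embryo: its cells are polarised and joined by tight junctions, pump fluid into the blastocoel and later invade the uterus. Polarity keeps Hippo signalling low in outer cells, where YAP and TEAD4 turn on Cdx2 and Gata3, while inner cells keep the pluripotency factors. Within the ICM, FGF4 made by future epiblast cells acts on neighbours to form primitive endoderm, the source of VE. The sides of the 6 genes taken as markers are given as a description, not as a test of tissue identity. Tdgf1, Upp1 and Spic were higher in both ICM libraries, and Gata3, Id2 and Krt18 in both TE libraries.

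The 4 libraries were of similar breadth, with 8999 and 8869 genes at 1 FPKM or more in ICM, against 8967 and 8457 in TE. ICM libraries resembled each other closely (Pearson r across genes 0.988, SD of the log2 difference 0.333). TE libraries did so less (r = 0.938, SD 0.776, the widest of the 11 in vivo groups), and TE replicate 2 lay nearer to the ICM libraries (r = 0.887 and 0.885) than TE replicate 1 did (0.849 and 0.848). The number of reads behind each value is unknown. Values are given below as replicate 1 and replicate 2 of each tissue (n = 2 each).

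Sex-linked and oocyte genes set libraries apart in ways that the labels do not state. The Y-linked genes Ddx3y, a helicase gene, and Eif2s3y, a translation factor gene, were near 0 in ICM. Ddx3y had 0.0443 and 0.0395 FPKM in ICM and 13.3 and 11.9 FPKM in TE (log2 fold -3.71, SE 0.75, limma adjusted p = 0.00110). Eif2s3y had 0.191 and 0.340 FPKM in ICM and 10.5 and 15 FPKM in TE (log2 fold -3.43, SE 0.70, limma adjusted p = 0.00114). Summed over the 6 listed Y-linked genes, the level was 0.254 and 0.379 FPKM in ICM and 25.5 and 28.1 FPKM in TE, and Zfy1 and Usp9y were at or near 0 in all 4 libraries. Xist, the RNA that silences an X chromosome in female cells, stood at 27.0 and 30.5 FPKM in ICM and 3.34 and 7.37 FPKM in TE, with no overlap, but did not pass the test (log2 fold 2.30, SE 1.06, limma adjusted p = 0.115). Its overlapping antisense partner Tsix had 52.6 and 60.5 FPKM in ICM and 4.04 and 6.02 FPKM in TE (log2 fold 3.27, SE 0.93, limma adjusted p = 0.0130), and without strand in the counting the pair cannot be told apart. The Tsix call ended without ICM replicate 1 (adjusted p = 0.0633), ICM replicate 2 (0.0815) or TE replicate 1 (0.0783). Sex of the embryos and tissue cannot be told apart here for any gene, those of the sex chromosomes among them. The X-linked genes named below include Bmp15, Tmsb4x, Plac1, Timp1, Ldoc1, Mbnl3, Porcn and Xiap.

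Several oocyte transcripts were far higher in TE replicate 1 than in the other 3 E3.5 libraries. Btg4, which drives removal of maternal mRNA, was at 6.35 and 1.77 FPKM in ICM and at 70.4 and 0.253 FPKM in TE. The egg-secreted factor Bmp15 was at 4.83 and 2.21 FPKM in ICM and 43.6 and 0.193 FPKM in TE, and Oosp1, an oocyte-secreted protein gene, at 2.91 and 1.08 FPKM in ICM and 28.1 and 0.426 FPKM in TE. Tcl1, an activator of AKT, did not follow, with 98.5 and 122 FPKM in ICM and 67.9 and 0.588 FPKM in TE. Ooep was high in every E3.5 library, with 67.4 and 72.4 FPKM in ICM and 138 and 95.4 FPKM in TE. The 15 oocyte genes in the table summed to 194 and 214 FPKM in ICM and to 407 and 97.5 FPKM in TE. Ooep and Tcl1 made up most of the ICM sums, and Ooep most of the sum in TE replicate 2. Of all genes tested 12.3% were called higher in ICM and 9.93% lower. Of 14 oocyte genes tested, 1 was called higher in ICM, 0 lower and 13 not called (median log2 fold -0.82). With TE replicate 2 left out 7 were called lower, and with TE replicate 1 left out 3 were called higher. The called gene was Zp3, a coat protein of the egg, with 6.86 and 11.2 FPKM in ICM and 1.56 and 0.126 FPKM in TE (log2 fold 2.53, SE 0.33, limma adjusted p = 1.40e-05). The part of oocyte RNA in the other results was not tested. Gene list counts without TE replicate 1 are given below for most, but not all, lists where they moved by over 1.5 times.

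**Figure D1:**
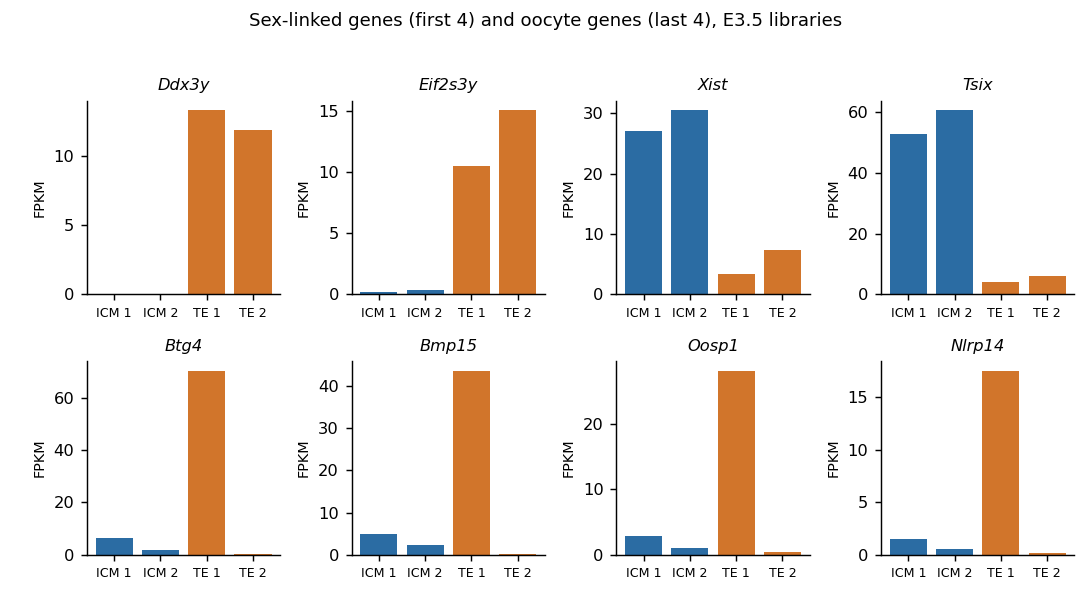
FPKM (vertical axes, each from 0) of 4 sex-linked and 4 oocyte genes in the 2 ICM libraries (blue) and the 2 TE libraries (orange), 1 bar per library. Y-linked Ddx3y and Eif2s3y are near 0 in both ICM libraries, Xist and Tsix are higher there, and the oocyte genes stand out in TE replicate 1.

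Limma, on log2(FPKM+1) with all 22 in vivo libraries in a single fit, called 2867 genes, 22.3% of those tested. A call needed an adjusted p below 0.05 together with a change of 1 or more in either direction on the log2 scale. Of these 1589 (12.3%) were higher in ICM and 1278 (9.93%) were lower, and the median log2 fold over all genes tested was 0.03. In 2857 of the 2867 the ICM and TE libraries did not overlap, as in 60.0% of all genes tested, and 1626 were called with the same direction whichever of the 4 libraries was left out. Lack of overlap is thus usual for a called gene and is given below only as a description. Folds are ICM over TE and, through the added 1 FPKM, understate the change of genes with low values. A fit of the 4 libraries alone called 1000 genes, 593 higher and 407 lower, of which 985 were among the 2867 with the same direction. Of 110 called genes that a fixed rule chose for naming, 28 lost the call there: Krt18, Krt8, Tfap2a, Pkp2, Vgll4, Tead2, Dusp4, Wnt7b, Porcn, Socs2, Hells, Trim28, Igf2, Smoc1, Sqle, Cyp51, Scd2, Psat1, Ctsb, Cdk4, Xiap, Ier2, Ddit3, Jund, Zp3, Cd68, Vim and Zfp57. Of the genes named for other reasons, Pou5f1, Nanog, Klf5, Cdx2, Hand1, Ezr, Ctgf, Fgfr2, Smad7, Dkk1, Jak1, Stat3, Erbb2, Lcp1, Slc2a3, Bhmt, Apaf1, Wnt6, Tcf7l1, Axin2 and Junb lost it too. In the fit of 4 libraries 7 pluripotency and 9 primitive endoderm genes were called higher, and 5 trophectoderm and 5 junction genes lower, fewer than given below for all 22. With 6 libraries, E4.0 ICM added, Cldn4, Hells, Igf2, Tsix, Smoc1, Sqle, Cyp51, Scd2, Ier2, Jund, Cd68, Zfp57, Hand1, Sox17, Fgfr2, Smad7, Slc2a3, Wnt6, Axin2, Junb and Id1 lost their calls. Array weights ended those of Igf2, Smoc1, Sqle, Cyp51, Pou5f1, Hand1, Cdh1, Ctgf, Stat3, Junb and Id1. The lack of a filter ended those of Tsix, Smoc1, Sqle, Cyp51, Zfp57 and Id1, quantile normalization those of Cdk1 and Zfp57, and a pseudocount of 0.1 that of Stat3.

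The transcription factors of pluripotency were mostly higher in ICM. Of 20 listed and tested, 13 were called higher, 1 lower and 6 not called, against 12.3% and 9.93% of all genes, with a median log2 fold of 2.18. These shares of all genes are the background for every list count of the main fit below. Spic, an ETS family factor, was at 226 and 165 FPKM in ICM and 2.95 and 1.72 FPKM in TE (log2 fold 5.89, SE 0.35, limma adjusted p = 1.07e-09). Utf1, a chromatin factor of undifferentiated cells, was at 177 and 198 FPKM in ICM and 2.55 and 7.95 FPKM in TE (log2 fold 5.06, SE 0.39, limma adjusted p = 3.08e-08). Both were high in each ICM library. The nuclear receptor Esrrb had 12.0 and 12.7 FPKM in ICM and 0.151 and 0.0345 FPKM in TE (log2 fold 3.61, SE 0.17, limma adjusted p = 4.98e-11), and Prdm14, which guards the naive state, 11.6 and 11.3 FPKM in ICM and 0.0361 and 0 FPKM in TE (log2 fold 3.61, SE 0.17, limma adjusted p = 7.08e-11).

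The core factors also had a signal in TE. Nanog had 205 and 185 FPKM in ICM and 10.4 and 39.4 FPKM in TE (log2 fold 3.19, SE 0.56, limma adjusted p = 3.13e-04). Pou5f1, which encodes OCT4, had 127 and 106 FPKM in ICM and 14.1 and 35.8 FPKM in TE (log2 fold 2.31, SE 0.59, limma adjusted p = 0.00672). Its call ended without ICM replicate 1 (adjusted p = 0.0573) or TE replicate 1 (0.101). Sox2 had 8.66 and 8.60 FPKM in ICM and was near 0 in TE, at 0.191 and 0.492 FPKM (log2 fold 2.85, SE 0.30, limma adjusted p = 1.13e-06). For Nanog and Pou5f1, TE replicate 2 held more than TE replicate 1, while no library overlapped between tissues. Several genes of the list were high on both sides: Dppa5a, an RNA-binding protein gene, had 11845 and 12952 FPKM in ICM and 11152 and 8856 FPKM in TE, and the maternal factor Dppa3 1389.9 and 1259 FPKM in ICM and 1027 and 709 FPKM in TE, neither called. Klf5, a factor that both lineages use, went the other way with 22.4 and 21.4 FPKM in ICM and 105 and 57.6 FPKM in TE (log2 fold -1.78, SE 0.35, limma adjusted p = 7.21e-04).

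Of 20 trophectoderm factors, 12 were called lower in ICM, 1 higher and 7 not called, with a median log2 fold of -1.61. Gata3, which specifies TE beside Cdx2, was at 8.16 and 10.1 FPKM in ICM and 136 and 184 FPKM in TE (log2 fold -3.98, SE 0.30, limma adjusted p = 2.20e-08). Id2, which blocks basic helix-loop-helix factors and is an early mark of outer cells, was at 32.7 and 55 FPKM in ICM and 1131 and 851 FPKM in TE (log2 fold -4.50, SE 0.40, limma adjusted p = 1.40e-07). Gata2, which works with Gata3 in trophoblast, had 1.23 and 2.14 FPKM in ICM and 25.3 and 47.4 FPKM in TE (log2 fold -3.75, SE 0.26, limma adjusted p = 8.12e-09). Each was higher in both TE libraries, and none was absent from ICM. Tfap2a, which encodes an AP-2 factor, had 0.358 and 0.543 FPKM in ICM and 32.4 and 10.8 FPKM in TE (log2 fold -3.78, SE 0.31, limma adjusted p = 6.55e-08), and Cebpa 0.203 and 0.361 FPKM in ICM and 8.91 and 8.80 FPKM in TE (log2 fold -2.95, SE 0.14, limma adjusted p = 4.98e-11).

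Cdx2, the homeobox factor that TE depends on, was at 2.61 and 3.82 FPKM in ICM and 11.6 and 19 FPKM in TE (log2 fold -1.93, SE 0.29, limma adjusted p = 7.07e-05). Eomes, needed for trophoblast growth, was at 5.94 and 4.74 FPKM in ICM and 44.0 and 30.4 FPKM in TE (log2 fold -2.57, SE 0.34, limma adjusted p = 1.70e-05). Both were present in ICM at lower levels, with no overlap between tissues. Tead4, at 6.60 and 5.08 FPKM in ICM and 7.33 and 16.9 FPKM in TE, and the AP-2 factor gene Tfap2c, at 11.3 and 8.38 FPKM in ICM and 15.4 and 19.5 FPKM in TE, were not called. Hand1, a factor of trophoblast giant cells, went against the list, with 13.7 and 1.98 FPKM in ICM and 0 and 0.0820 FPKM in TE (log2 fold 2.67, SE 0.56, limma adjusted p = 0.00135). Its 2 ICM libraries differed widely.

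**Figure D2:**
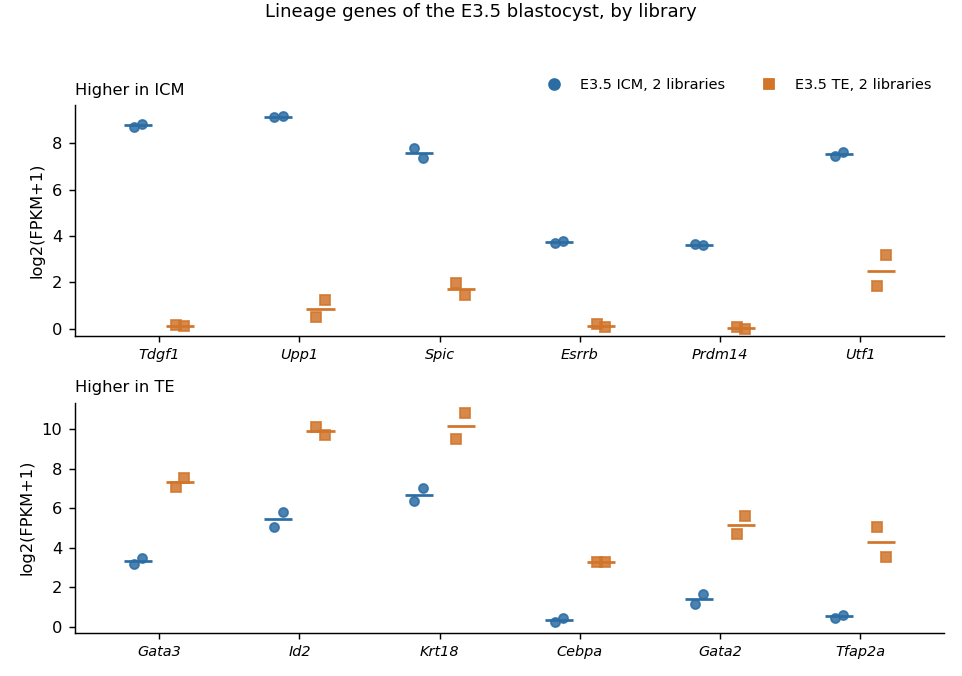
log2(FPKM+1) (vertical axes) of 12 lineage genes, with the 2 ICM libraries as blue circles, the 2 TE libraries as orange squares and their means as lines. The upper row is higher in both ICM libraries and the lower row in both TE libraries, with no overlap for any of the 12.

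The largest rises included genes with little or no TE signal. Tdgf1, the Nodal co-receptor Cripto, was at 424 and 454 FPKM in ICM and 0.10 and 0.0806 FPKM in TE (log2 fold 8.66, SE 0.73, limma adjusted p = 7.77e-08). Upp1, which splits uridine for the pentose pathway, was at 557 and 582 FPKM in ICM and 0.414 and 1.33 FPKM in TE (log2 fold 8.29, SE 0.54, limma adjusted p = 3.84e-09). The water channel gene Aqp8 was at 96.4 and 105 FPKM in ICM and 0 and 0.764 FPKM in TE (log2 fold 6.26, SE 0.42, limma adjusted p = 5.26e-09). All 3 were at least an order of magnitude apart between tissues in every pair of libraries. Crygc, Crygd and Cryge are near-identical lens crystallin genes, among which reads may be split uncertainly, and all 3 were listed at 0 in both TE libraries. In ICM Crygc had 69.4 and 91.0 FPKM, Crygd 56.3 and 74.1 FPKM and Cryge 53.9 and 63.5 FPKM. Tdh, threonine dehydrogenase, had 81.0 and 69.7 FPKM in ICM and was listed at 0 in TE as well (limma adjusted p = 4.85e-09).

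Further down the same ranking stood secreted and matrix proteins and enzymes. The protease inhibitor gene Timp1 had 38.2 and 51.7 FPKM in ICM and 0 and 0.208 FPKM in TE (log2 fold 5.37, SE 0.39, limma adjusted p = 1.45e-08). Tfpi, an inhibitor of blood clotting made by early endoderm, had 41.8 and 62.0 FPKM in ICM and 0.135 and 0.434 FPKM in TE (log2 fold 5.35, SE 0.30, limma adjusted p = 5.57e-10). Ube2l6, an enzyme of ISG15 conjugation, had 184 and 194 FPKM in ICM and 2.79 and 4.38 FPKM in TE (log2 fold 5.39, SE 0.33, limma adjusted p = 1.39e-09). The epoxide hydrolase gene Ephx2 completed the group with 38.3 and 50.1 FPKM in ICM and 0.0485 and 0.0779 FPKM in TE (log2 fold 5.4, SE 0.47, limma adjusted p = 1.19e-07). None of these overlapped between tissues, which was a condition for entering the ranking.

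The largest falls were headed by Tmsb4x, thymosin beta 4, which holds actin monomers, at 140.4 and 176 FPKM in ICM and 12089 and 4507 FPKM in TE (log2 fold -5.54, SE 0.59, limma adjusted p = 1.35e-06). TE replicate 1 carried most of that level, but both TE libraries were far above ICM. Plac1, a placental surface protein gene, had 3.39 and 0.207 FPKM in ICM and 115 and 96.6 FPKM in TE (log2 fold -5.53, SE 0.53, limma adjusted p = 3.39e-07). Dppa1, a small protein gene of the early embryo, had 16.8 and 27.0 FPKM in ICM and 469 and 512 FPKM in TE (log2 fold -4.46, SE 0.23, limma adjusted p = 1.95e-10). Despite a name taken from pluripotency screens, it was higher in both TE libraries. Anxa3, an annexin gene, was listed at 0 in both ICM libraries and had 36.7 and 23.3 FPKM in TE.

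Enzymes and traffic genes filled much of the remaining ranking. The alcohol dehydrogenase gene Adh1 had 35.6 and 58.4 FPKM in ICM and 1409 and 866 FPKM in TE (log2 fold -4.57, SE 0.54, limma adjusted p = 3.93e-06). Rab17, a small GTPase of epithelial sorting, had 0.589 and 0.915 FPKM in ICM and 28.5 and 46.1 FPKM in TE (log2 fold -4.42, SE 0.41, limma adjusted p = 2.74e-07). St3gal6, a sialyltransferase gene, had 0.864 and 1.02 FPKM in ICM and 37.0 and 44.0 FPKM in TE (log2 fold -4.41, SE 0.33, limma adjusted p = 1.59e-08). Every library pair kept this direction, as the ranking required. Log2 folds of Fam213b, Pon2, Ank, Efhd2, Mbnl3 and Ldoc1, also in this ranking, lay between -4.71 and -4.41. Mbnl3, a splicing factor of the muscleblind family, was at 0.359 and 0.289 FPKM in ICM and 30.0 and 24.5 FPKM in TE.

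The promoters of 3 markers, Gata3, Krt18 and Upp1, and of Krt8, the partner of Krt18, are shown as examples with motif matches. Krt8 and Krt18 encode the keratin pair that assembles into the filaments of TE, and lie next to each other on opposite strands of chromosome 15. Sequences are from RefSeq, build GRCm38.p6, 250 bases before to 50 after a transcript start, 5′ to 3′ on the gene's strand. Capitals mark matches on either strand to any of 5 short motifs that were searched. The motif of TEAD factors was spelled GGAATG. For factors of the family that includes Gata3 and Gata4, the letters AGATAA were used. The octamer bound by OCT4 was searched as ATGCAAAT, the palindrome of AP-2 factors as GCCNNNGGC, and the motif of Kruppel-like factors, here KLF, as GGGTGTGG. Krt8 is chr15:102004293-102004592 on the minus strand and Krt18 chr15:102027966-102028265 on the plus strand. Gata3 is chr2:9878551-9878850 on the minus strand, and the Upp1 start shown, 1 of 3, is chr11:9118257-9118556 on the plus strand.
Krt8: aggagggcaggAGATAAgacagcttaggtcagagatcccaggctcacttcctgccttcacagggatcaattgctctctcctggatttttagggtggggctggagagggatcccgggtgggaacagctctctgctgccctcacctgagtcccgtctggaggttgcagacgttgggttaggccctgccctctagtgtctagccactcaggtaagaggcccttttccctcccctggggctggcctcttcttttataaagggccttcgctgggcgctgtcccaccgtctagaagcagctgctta
Krt18: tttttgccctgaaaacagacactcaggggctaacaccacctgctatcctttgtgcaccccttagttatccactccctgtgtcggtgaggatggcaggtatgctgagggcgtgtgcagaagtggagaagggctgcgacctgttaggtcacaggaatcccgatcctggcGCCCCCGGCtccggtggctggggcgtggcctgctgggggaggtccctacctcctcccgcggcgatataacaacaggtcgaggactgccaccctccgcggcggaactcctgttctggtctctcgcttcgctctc
Gata3: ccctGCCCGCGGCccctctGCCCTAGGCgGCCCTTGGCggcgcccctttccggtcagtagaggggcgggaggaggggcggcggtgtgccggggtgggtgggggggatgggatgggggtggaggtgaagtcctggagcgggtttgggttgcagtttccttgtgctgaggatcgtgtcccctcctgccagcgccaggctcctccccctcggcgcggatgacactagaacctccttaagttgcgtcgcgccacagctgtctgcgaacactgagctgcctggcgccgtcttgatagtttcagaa
Upp1: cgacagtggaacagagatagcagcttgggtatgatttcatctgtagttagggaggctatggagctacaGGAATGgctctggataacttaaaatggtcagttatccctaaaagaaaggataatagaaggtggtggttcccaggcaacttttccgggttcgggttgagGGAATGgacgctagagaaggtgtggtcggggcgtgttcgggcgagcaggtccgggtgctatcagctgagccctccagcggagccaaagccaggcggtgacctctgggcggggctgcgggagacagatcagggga
The Krt8 window held 1 GATA match, that of Krt18 1 AP-2 match, that of Gata3 3 AP-2 matches and that of Upp1 2 TEAD matches. Of the other Upp1 windows, the first held 1 TEAD and 1 AP-2 match and the second 1 AP-2 match. The single windows of Tdgf1, Spic and Id2 held none of the 5 motifs. AP-2 letters were in 21.15% of 1461 promoters of genes called higher in ICM, 28.44% of 1294 of genes called lower, and 24.54% of 12021 of all genes tested. TEAD letters were in 12.46%, 14.37% and 12.3% of the same promoters, GATA in 7.05%, 6.88% and 6.58%, octamer in 1.37%, 1.39% and 1.31% and KLF in 3.7%, 4.64% and 3.78%. A gene could have several promoters, and 9428 of the 12874 tested symbols matched the promoter table. These shares are a description of letters in a short window and carry no test.

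Genes of primitive endoderm were largely on the ICM side. Of 20 tested, 14 were called higher in ICM, 2 lower and 4 not called (median log2 fold 1.67). Sparc, a matrix glycoprotein of extraembryonic endoderm, was at 154 and 185 FPKM in ICM and 1.81 and 5.62 FPKM in TE (log2 fold 5.30, SE 0.36, limma adjusted p = 5.55e-09). Pdgfra, the receptor that marks primitive endoderm cells, was at 16.3 and 13.9 FPKM in ICM and 0.0135 and 0 FPKM in TE (log2 fold 4.00, SE 0.31, limma adjusted p = 2.47e-08). Gata4, the factor that follows Gata6 in that lineage, was at 4.58 and 7.54 FPKM in ICM and 0.0539 and 0 FPKM in TE (log2 fold 2.75, SE 0.34, limma adjusted p = 6.67e-06). Levels of the later factors were low even in ICM: Sox17 had 1.79 and 2.28 FPKM in ICM and 0.0294 and 0 FPKM in TE (log2 fold 1.58, SE 0.31, limma adjusted p = 7.72e-04). Foxa2 had 0.361 and 0.642 FPKM in ICM and was listed at 0 in TE, and Sox7 was listed at 0 in both ICM libraries and at 0.0281 and 0.0451 FPKM in TE.

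Gata6, the earliest factor of the lineage, was not called, at 20.4 and 21.5 FPKM in ICM and 33.5 and 9.37 FPKM in TE, and its libraries overlapped. The 2 genes called lower were Dab2 and Lrp2. Dab2, an adaptor for endocytosis, had 6.30 and 9.25 FPKM in ICM and 149 and 189 FPKM in TE (log2 fold -4.29, SE 0.39, limma adjusted p = 1.61e-07). Lrp2, the endocytic receptor megalin, had 0.827 and 1.37 FPKM in ICM and 22.1 and 14.3 FPKM in TE (log2 fold -3.18, SE 0.66, limma adjusted p = 0.00134). Their partner receptor gene Cubn stood on the other side, with 2.94 and 2.82 FPKM in ICM and 0.0154 and 0 FPKM in TE (log2 fold 1.95, SE 0.33, limma adjusted p = 1.86e-04). Megalin and cubilin, which act together in endoderm, lay on different sides in these libraries.

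Among lists with 10 or more tested members, cell junction genes had the highest share on the TE side. Of 20 cell junction genes tested out of 21, 16 were called lower in ICM, 0 higher and 4 not called (median log2 fold -1.48). That count was 10 without ICM replicate 2 and 10 without TE replicate 2. Cldn4, a claudin of tight junctions, had 8.05 and 11.2 FPKM in ICM and 84.4 and 161 FPKM in TE (log2 fold -3.48, SE 0.59, limma adjusted p = 2.24e-04). Dsp, the desmosome anchor desmoplakin, had 0.511 and 0.334 FPKM in ICM and 8.74 and 7.35 FPKM in TE (log2 fold -2.67, SE 0.22, limma adjusted p = 7.63e-08). Its partner Pkp2 had 0.846 and 1.5 FPKM in ICM and 11.4 and 22.9 FPKM in TE (log2 fold -3.00, SE 0.36, limma adjusted p = 5.79e-06). Neither overlapped between tissues. Perp, another desmosome protein gene, had 24.6 and 17.9 FPKM in ICM and 108 and 147 FPKM in TE (log2 fold -2.53, SE 0.45, limma adjusted p = 3.26e-04). Cdh1, E-cadherin, had 35.4 and 35.1 FPKM in ICM and 95.6 and 88.4 FPKM in TE (log2 fold -1.36, SE 0.38, limma adjusted p = 0.0119), a call that ended without ICM replicate 1 (adjusted p = 0.0634), ICM replicate 2 (0.0657) or TE replicate 1 (0.0592). Ctnnb1, beta-catenin, which joins cadherins to actin, overlapped between tissues at 65.4 and 51.4 FPKM in ICM and 58.9 and 65.6 FPKM in TE, and was not called.

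Of 5 simple epithelial keratins tested out of 6, 2 were lower in ICM and 3 not called. Krt8 had 76.7 and 109.7 FPKM in ICM and 418 and 943 FPKM in TE (log2 fold -2.76, SE 0.37, limma adjusted p = 2.00e-05). Krt18 had 80.7 and 130.4 FPKM in ICM and 724 and 1817 FPKM in TE (log2 fold -3.47, SE 0.44, limma adjusted p = 8.44e-06). For both genes the highest value was in TE replicate 2, and both were well above 0 in ICM. Krt7 had 0.145 and 0 FPKM in ICM and 0.941 and 7.26 FPKM in TE and was not called, Krt19 and Krt23 were below 1 FPKM in all 4 libraries, and Krt20 was not tested.

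Genes for blastocoel fluid lay on both sides. Of 11 tested out of 13, 4 were lower in ICM, 2 higher and 5 not called (median log2 fold -1.04), and after quantile normalization 7 were lower. Atp12a, a proton and potassium pump, had 0.105 and 0 FPKM in ICM and 12.1 and 21.0 FPKM in TE (log2 fold -4.01, SE 0.27, limma adjusted p = 5.18e-09). Fxyd4, which tunes the sodium pump, had 3.69 and 2.70 FPKM in ICM and 24.8 and 24.9 FPKM in TE (log2 fold -2.64, SE 0.24, limma adjusted p = 2.38e-07). The channel gene Aqp9, which passes water and glycerol, had 10.0 and 9.94 FPKM in ICM and 46.8 and 48.3 FPKM in TE (log2 fold -2.14, SE 0.17, limma adjusted p = 3.29e-08). Aqp8, above, lay on the ICM side, and so did the carbonic anhydrase gene Car2, with 3.27 and 2.90 FPKM in ICM and 0.109 and 0.0877 FPKM in TE (log2 fold 1.89, SE 0.40, limma adjusted p = 0.00158). Aqp3, another channel gene for water and glycerol, was not called, with 40.5 and 27.6 FPKM in ICM and 44.8 and 109 FPKM in TE.

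Of 22 polarity and Hippo genes, 7 were called lower in ICM, 3 higher and 12 not called (median log2 fold -0.35), with 1 higher under array weights. Vgll4, which competes with YAP for TEAD factors, had 0.0923 and 0.164 FPKM in ICM and 3.35 and 6.31 FPKM in TE (log2 fold -2.32, SE 0.29, limma adjusted p = 8.21e-06). Amotl2, an angiomotin that holds YAP in the cytoplasm, had 1.14 and 1.36 FPKM in ICM and 16.9 and 11.5 FPKM in TE (log2 fold -2.74, SE 0.35, limma adjusted p = 1.08e-05). Tead2 had 2.65 and 3.05 FPKM in ICM and 30.2 and 13.0 FPKM in TE (log2 fold -2.44, SE 0.32, limma adjusted p = 1.60e-05). The polarity gene Pard6b, which localises atypical protein kinase C to the apical side, had 1.64 and 0.714 FPKM in ICM and 11.6 and 11.3 FPKM in TE (log2 fold -2.55, SE 0.36, limma adjusted p = 2.87e-05). The kinase genes Lats1 and Lats2, the upstream gene Nf2 and Yap1 were not called, Yap1 with 4.00 and 3.44 FPKM in ICM and 11 and 5.76 FPKM in TE. Ctgf, a widely used YAP target, lay on the ICM side with 8.52 and 12.2 FPKM in ICM and 0.235 and 1.26 FPKM in TE (log2 fold 2.74, SE 0.64, limma adjusted p = 0.00342), as did Ezr, an apical membrane linker, with 49.2 and 30.9 FPKM in ICM and 6.46 and 10.4 FPKM in TE (log2 fold 2.12, SE 0.31, limma adjusted p = 4.17e-05).

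**Figure D3:**
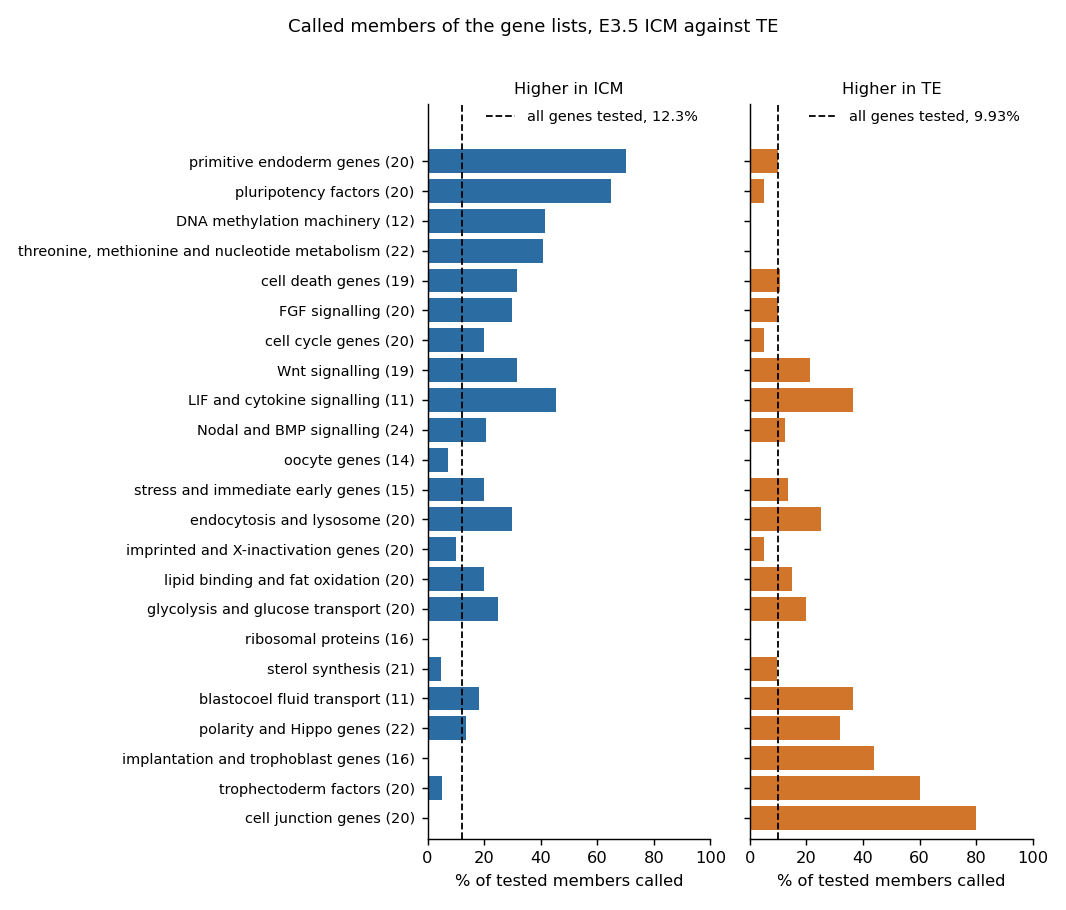
Share of the tested members of each gene list (number tested in brackets, horizontal axes 0 to 100%) called higher in ICM (blue, left) and called higher in TE (orange, right), for lists with at least 10 tested members. Dashed lines give the share over all genes tested, 12.3% and 9.93%; primitive endoderm and pluripotency lists reach furthest on the left, cell junction and trophectoderm lists on the right.

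Fgf4, Fgf10 and some feedback genes of the pathway were higher in ICM. Of 20 FGF signalling genes, 6 were called higher in ICM, 2 lower and 12 not called (median log2 fold 0.48). Without ICM replicate 2, 1 was lower, and with a pseudocount of 0.1 or quantile normalization 4 were. Fgf4, the ligand that divides the ICM into epiblast and primitive endoderm and feeds trophoblast growth, had 6.67 and 10.4 FPKM in ICM and 0 and 0.0489 FPKM in TE (log2 fold 3.19, SE 0.23, limma adjusted p = 1.23e-08). Fgf10, a ligand of the IIIb forms of FGFR2, had 23.8 and 23.5 FPKM in ICM and 0.0590 and 0 FPKM in TE (log2 fold 4.58, SE 0.27, limma adjusted p = 1.07e-09). Etv5, an ETS factor induced by FGF signalling, had 33.0 and 27.3 FPKM in ICM and 0.166 and 0 FPKM in TE (log2 fold 4.84, SE 0.32, limma adjusted p = 4.77e-09), and the phosphatase gene Dusp4, which acts on ERK, 7.80 and 8.79 FPKM in ICM and 1.47 and 0.374 FPKM in TE (log2 fold 2.33, SE 0.39, limma adjusted p = 1.72e-04).

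The receptor gene Fgfr2 lay on the opposite side, with 5.81 and 8.2 FPKM in ICM and 52.7 and 16.7 FPKM in TE (log2 fold -1.96, SE 0.38, limma adjusted p = 7.95e-04). TE replicate 1 had the higher of the TE values, and no library overlapped. Fgfr1, with 8.81 and 9.13 FPKM in ICM and 6.15 and 3.46 FPKM in TE, was not called, and Fgf5, a ligand of later epiblast, was listed at 0 in all 4 libraries. Dusp6, the other ERK phosphatase gene of the list, had 12.7 and 14.3 FPKM in ICM and 26.6 and 28.3 FPKM in TE and stayed under the fold limit (log2 fold -0.98, SE 0.33, limma adjusted p = 0.0355).

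Lif was lower in ICM, and the receptor genes Lifr and Il6st were higher. LIF is the cytokine that holds embryonic stem cells in the naive state in culture, through the receptor pair LIFR and gp130 and the kinase JAK and factor STAT3. Lif had 0.301 and 0.195 FPKM in ICM and 9.76 and 5.37 FPKM in TE (log2 fold -2.73, SE 0.19, limma adjusted p = 6.85e-09). Lifr had 6.13 and 9.24 FPKM in ICM and 0.0272 and 0 FPKM in TE (log2 fold 3.08, SE 0.31, limma adjusted p = 6.45e-07), and Il6st, which encodes gp130, 6.89 and 8.16 FPKM in ICM and 0.671 and 0.0262 FPKM in TE (log2 fold 2.70, SE 0.28, limma adjusted p = 1.12e-06). Ligand and receptor genes lay on opposite sides, with no overlap in any of the 3. Socs2, a feedback inhibitor of cytokine receptors, had 34.5 and 38.5 FPKM in ICM and 3.23 and 0.593 FPKM in TE (log2 fold 3.85, SE 0.41, limma adjusted p = 1.23e-06). Over the 11 genes 5 were called higher in ICM, 4 lower and 2 not called (median log2 fold 0.76), and the lower count was 2 without ICM replicate 2 or TE replicate 1.

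The transducers Jak1 and Stat3 were with the ligand. Jak1 had 5.48 and 5.49 FPKM in ICM and 13.4 and 22.5 FPKM in TE (log2 fold -1.51, SE 0.34, limma adjusted p = 0.00232). Stat3 had 18.4 and 15 FPKM in ICM and 35.8 and 33.7 FPKM in TE (log2 fold -1.02, SE 0.31, limma adjusted p = 0.0181), and lost its call without ICM replicate 2 (adjusted p = 0.130, log2 fold -0.89) or TE replicate 1 (adjusted p = 0.0763, log2 fold -0.98).

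**Figure D4:**
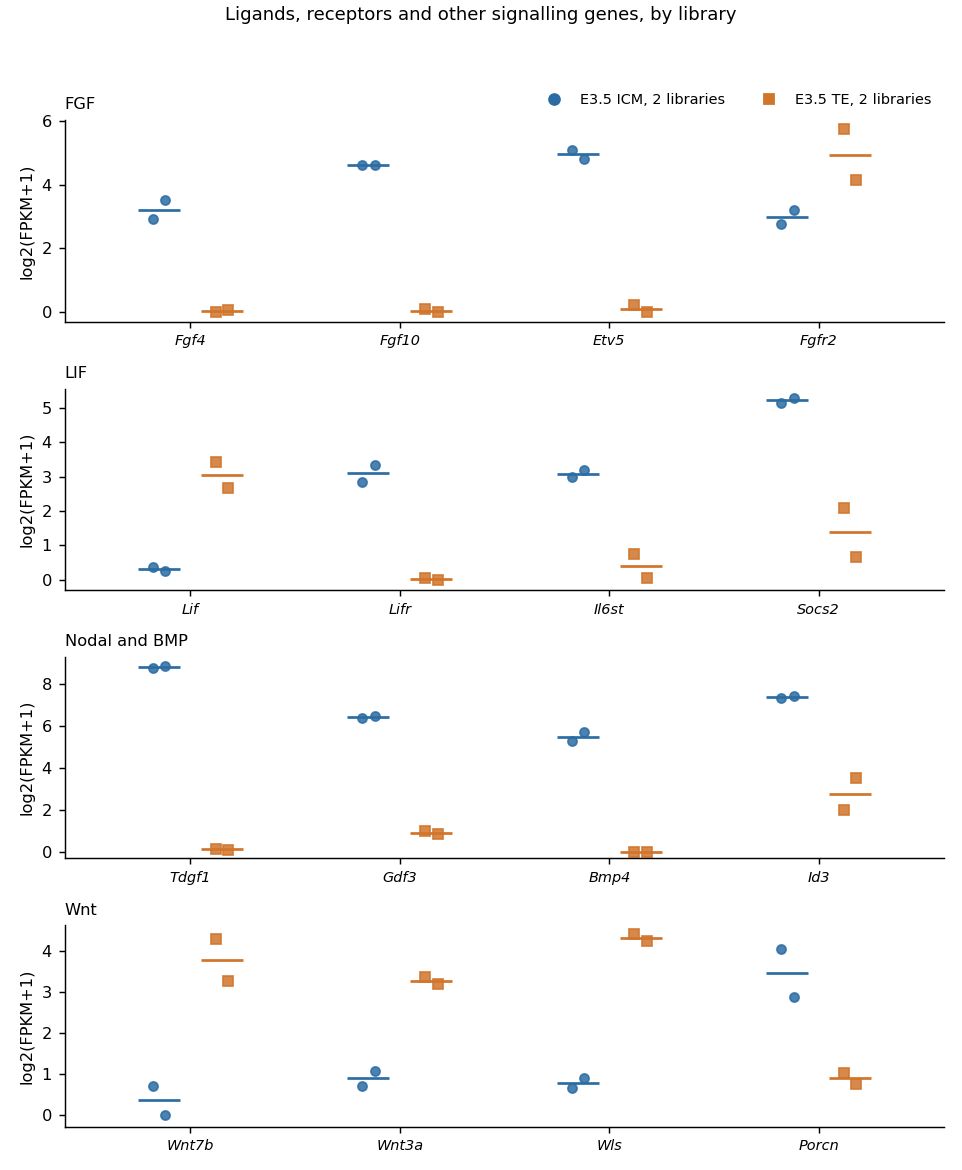
log2(FPKM+1) (vertical axes) of 16 genes of the FGF, LIF, Nodal and BMP, and Wnt pathways, with the 2 ICM libraries as blue circles, the 2 TE libraries as orange squares and their means as lines. Fgf4 and Fgf10 are high in ICM where Fgfr2 is lower, and Lif is high in TE where Lifr and Il6st are near 0; Wnt7b, Wnt3a and Wls lie on the TE side and Porcn on the ICM side.

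Among 24 Nodal and BMP genes, 5 were called higher in ICM, 3 lower and 16 not called (median log2 fold -0.01). The shares were 20.8% and 12.5%, against 12.3% and 9.93% of all genes. Without TE replicate 2 the lower count was 6, and with a pseudocount of 0.1 the higher count was 8. The called genes on the ICM side were the ligand genes Gdf3 and Bmp4, the co-receptor gene Tdgf1 and the target genes Id3 and Id1. Id1 lost its call in 7 of the 13 other settings, with log2 folds of 1.29 to 1.83 when 1 library was left out. Besides Tdgf1, the ligand gene Gdf3, which signals through that co-receptor, had 83.0 and 86.5 FPKM in ICM and 0.997 and 0.801 FPKM in TE (log2 fold 5.5, SE 0.26, limma adjusted p = 8.06e-11). Bmp4 had 37.7 and 50.7 FPKM in ICM and was listed at 0 in both TE libraries (limma adjusted p = 1.69e-08). Id3, a BMP target, had 159 and 171 FPKM in ICM and 3.04 and 10.4 FPKM in TE (log2 fold 4.61, SE 0.38, limma adjusted p = 5.05e-08). Its relative Id2, above, lay on the TE side. Nodal itself was low, at 0.683 and 1.12 FPKM in ICM and listed at 0 in TE, and was not called. Smad7, an inhibitor of both branches, had 0.302 and 0.413 FPKM in ICM and 6.69 and 1.92 FPKM in TE (log2 fold -1.80, SE 0.32, limma adjusted p = 3.28e-04), while the shared transducers Smad2, Smad4 and Smad5 were not called.

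Wnt3a, Wnt6, Wnt7b and the carrier gene Wls were lower in ICM, and Porcn, Tcf7l1, Tcf7l2, Axin2, Dkk1 and Sfrp1 higher. Axin2 lost its call without ICM replicate 1 (adjusted p = 0.0515), and the ligand gene Wnt3 and the nuclear genes Tcf7 and Lef1 were not called. Of 19 tested out of 20, 6 were called higher in ICM, 4 lower and 9 not called (median log2 fold 0.17). Wnt7b had 0.622 and 0 FPKM in ICM and 18.6 and 8.62 FPKM in TE (log2 fold -3.43, SE 0.26, limma adjusted p = 1.86e-08). Wnt3a had 0.621 and 1.10 FPKM in ICM and 9.23 and 8.14 FPKM in TE (log2 fold -2.39, SE 0.23, limma adjusted p = 4.80e-07). Wls, the carrier of Wnt proteins, had 0.557 and 0.850 FPKM in ICM and 20.2 and 18.0 FPKM in TE (log2 fold -3.56, SE 0.47, limma adjusted p = 1.60e-05). In each, both TE libraries exceeded both ICM libraries. Porcn, which attaches the lipid that Wnt proteins need, was on the other side with 15.5 and 6.28 FPKM in ICM and 1.03 and 0.670 FPKM in TE (log2 fold 2.57, SE 0.34, limma adjusted p = 1.55e-05). Tcf7l2, a nuclear partner of beta-catenin, had 12.8 and 14.9 FPKM in ICM and 3.72 and 3.83 FPKM in TE (log2 fold 1.64, SE 0.24, limma adjusted p = 5.86e-05), and the antagonist Dkk1 9.22 and 12.9 FPKM in ICM and 2.97 and 2.73 FPKM in TE (log2 fold 1.63, SE 0.38, limma adjusted p = 0.00299).

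Of 24 implantation and trophoblast genes only 16 passed the filter, and 7 of these were called lower in ICM, 0 higher and 9 not called (median log2 fold -0.95); without TE replicate 1, 1 was higher. Plac1, Dppa1 and Mbnl3, above, were among them. Tspan8, a tetraspanin of epithelial membranes, had 49.9 and 79.7 FPKM in ICM and 899 and 1093 FPKM in TE (log2 fold -3.95, SE 0.42, limma adjusted p = 1.13e-06). Erbb2, a receptor partner for EGF family ligands, had 0.738 and 1.09 FPKM in ICM and 4.91 and 7.54 FPKM in TE (log2 fold -1.90, SE 0.27, limma adjusted p = 3.24e-05), and Lcp1, an actin bundling protein gene, 36.3 and 46.3 FPKM in ICM and 177 and 322 FPKM in TE (log2 fold -2.52, SE 0.32, limma adjusted p = 1.14e-05). Egfr, Itga2, Itga6, Itga7, Plau, Mmp9, Areg and Psg29 stayed below the filter.

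Uhrf1 and Tet1 were higher in ICM, while no DNA methyltransferase gene was called. Of 12 genes of the DNA methylation machinery, 5 were called higher in ICM, 0 lower and 7 not called (median log2 fold 0.26). The higher count was 2 without ICM replicate 1 and 3 without ICM replicate 2 or TE replicate 2, and without the last 1 gene was lower. Uhrf1, which brings DNMT1 to newly copied DNA, had 57.3 and 48.5 FPKM in ICM and 7.33 and 12.5 FPKM in TE (log2 fold 2.34, SE 0.24, limma adjusted p = 9.64e-07). Tet1, which oxidises methylated cytosine, had 16.6 and 19.1 FPKM in ICM and 1.33 and 1.13 FPKM in TE (log2 fold 3.08, SE 0.31, limma adjusted p = 6.13e-07). Both held in all 13 other settings. Hells, a chromatin remodeller for methylation, had 35.4 and 27.6 FPKM in ICM and 7.34 and 16.7 FPKM in TE (log2 fold 1.41, SE 0.35, limma adjusted p = 0.00569). Trim28, the corepressor that guards imprints, had 66.3 and 71.3 FPKM in ICM and 30.6 and 21.4 FPKM in TE (log2 fold 1.39, SE 0.38, limma adjusted p = 0.0107). The zinc finger gene Zfp57, which recruits it, had 47.7 and 51.1 FPKM in ICM and 46.7 and 0.696 FPKM in TE (log2 fold 2.49, SE 0.86, limma adjusted p = 0.0376). TE replicate 1 lay next to the ICM values and TE replicate 2 far below them.

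These last 3 calls depended on single libraries. Hells lost its call without ICM replicate 1 (adjusted p = 0.0644) or TE replicate 1 (0.108). Trim28 lost it without ICM replicate 1 (0.0505), ICM replicate 2 (0.0701) or TE replicate 2 (0.0695). Zfp57 lost it without ICM replicate 1 (0.132), ICM replicate 2 (0.15) or TE replicate 2 (0.939, log2 fold 0.08).

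Dnmt1, which copies methylation, had 4.22 and 5.16 FPKM in ICM and 3.59 and 2.74 FPKM in TE (log2 fold 0.45, SE 0.24, limma adjusted p = 0.177). Dnmt3a, which adds it anew, had 2.24 and 1.85 FPKM in ICM and 3.93 and 1.27 FPKM in TE (log2 fold -0.14, SE 0.40, limma adjusted p = 0.887), and Dnmt3b 8.73 and 13.2 FPKM in ICM and 22.8 and 9.15 FPKM in TE (log2 fold -0.40, SE 0.39, limma adjusted p = 0.501). In both, the ICM and TE values overlapped. Their cofactor gene Dnmt3l had 26.4 and 22.3 FPKM in ICM and 33.5 and 32.6 FPKM in TE (log2 fold -0.43, SE 0.53, limma adjusted p = 0.623). A p above the threshold does not show that these levels were equal, and the sign of the Dnmt3a and Dnmt3b folds turned without TE replicate 1 (0.42 and 0.21). Tet2 had 9.69 and 8.90 FPKM in ICM and 9.78 and 7.84 FPKM in TE, Tet3 0.366 and 0.293 FPKM in ICM and 2.26 and 0.871 FPKM in TE, and the glycosylase gene Tdg 5.47 and 7.31 FPKM in ICM and 6.53 and 10.4 FPKM in TE, none called.

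Of 20 imprinted and X-inactivation genes, 2 were called higher in ICM, 1 lower and 17 not called (median log2 fold 0.13). These shares, 10% and 5%, were no larger than the 12.3% and 9.93% of all genes. The calls were Tsix, above, the matrix gene Smoc1, with 3.78 and 2.04 FPKM in ICM and 0.343 and 1.18 FPKM in TE (log2 fold 1.15, SE 0.40, limma adjusted p = 0.0400), and the growth factor gene Igf2, with 0.507 and 0.401 FPKM in ICM and 2.80 and 1.42 FPKM in TE (log2 fold -1.06, SE 0.27, limma adjusted p = 0.00698). Without TE replicate 1, 0 of the 20 were called, with adjusted p = 0.278 for Smoc1 and 0.0976 for Igf2. Smoc1 also lost its call without ICM replicate 1 (adjusted p = 0.291), where 0 were higher, and Igf2 without ICM replicate 2 (0.0528), where 1 was higher and 0 lower. Without TE replicate 2, 2 were lower. Snrpn, a splicing protein gene expressed from the paternal copy, had 121 and 86.5 FPKM in ICM and 44.0 and 118 FPKM in TE and overlapped between tissues.

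Several genes of threonine, methionine and nucleotide metabolism were higher in ICM. Of 22 genes, 9 were called higher in ICM, 0 lower and 13 not called (median log2 fold 0.72). Tdh and Upp1 are given above. Ahcy, which clears the product of methyl transfer, had 106 and 98.4 FPKM in ICM and 12.4 and 18.8 FPKM in TE (log2 fold 2.66, SE 0.28, limma adjusted p = 1.32e-06). Psat1, of serine synthesis, had 135 and 91.3 FPKM in ICM and 9.43 and 26.6 FPKM in TE (log2 fold 2.72, SE 0.38, limma adjusted p = 2.68e-05). Gcat, the enzyme after TDH in threonine breakdown, had 16.7 and 19.4 FPKM in ICM and 2.99 and 4.73 FPKM in TE (log2 fold 1.99, SE 0.35, limma adjusted p = 2.94e-04). Bhmt, which makes methionine from betaine, had 217 and 115 FPKM in ICM and 17.3 and 40.6 FPKM in TE (log2 fold 2.52, SE 0.43, limma adjusted p = 2.18e-04). Both steps of threonine breakdown were higher in each ICM library. Without ICM replicate 1 or TE replicate 1, 1 gene of the list was lower.

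Glycolysis went both ways. Of 20 genes, 5 were called higher in ICM, 4 lower and 11 not called (median log2 fold 0.09), and without TE replicate 1 the higher count was 3. Ldha, the muscle form of lactate dehydrogenase, had 15.6 and 20.7 FPKM in ICM and 0.763 and 1.31e-05 FPKM in TE (log2 fold 3.84, SE 0.32, limma adjusted p = 6.59e-08). Pgam1, phosphoglycerate mutase, had 186 and 155 FPKM in ICM and 25.7 and 36.6 FPKM in TE (log2 fold 2.43, SE 0.22, limma adjusted p = 1.71e-07). On the TE side, Tpi1, triosephosphate isomerase, had 38.4 and 52.4 FPKM in ICM and 183 and 258 FPKM in TE (log2 fold -2.25, SE 0.26, limma adjusted p = 2.96e-06), and the hexokinase gene Hk2 5.63 and 6.49 FPKM in ICM and 34.7 and 23.7 FPKM in TE (log2 fold -2.08, SE 0.29, limma adjusted p = 2.85e-05). Glycolysis and ribosomal protein genes have many processed copies in the mouse genome, so their FPKM are uncertain where reads could be split among copies. The glucose transporter gene Slc2a3 had 44.9 and 24.5 FPKM in ICM and 119.6 and 223 FPKM in TE (log2 fold -2.26, SE 0.62, limma adjusted p = 0.0101), a call that ended without ICM replicate 2 (adjusted p = 0.119) or TE replicate 2 (0.0771).

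Fatty acid binding protein genes lay on opposite sides. Fabp3, the heart type fatty acid binding protein gene, had 181 and 191 FPKM in ICM and 2933 and 2361 FPKM in TE (log2 fold -3.82, SE 0.61, limma adjusted p = 1.12e-04). Fabp5, the epidermal type, had 637 and 686 FPKM in ICM and 98.9 and 65.9 FPKM in TE (log2 fold 3.02, SE 0.50, limma adjusted p = 1.63e-04). Apoe, the lipid carrier apolipoprotein E, had 135 and 143 FPKM in ICM and 26.2 and 34.0 FPKM in TE (log2 fold 2.18, SE 0.24, limma adjusted p = 1.5e-06). None of the 3 overlapped. Scd2, a fatty acid desaturase gene, had 13.6 and 11.3 FPKM in ICM and 0.938 and 5.04 FPKM in TE (log2 fold 1.97, SE 0.45, limma adjusted p = 0.00307), and lost its call without TE replicate 1 (adjusted p = 0.0757). Of 20 genes, 4 were higher in ICM, 3 lower and 13 not called (median log2 fold -0.08), with 7 higher without TE replicate 2 1 lower without ICM replicate 2 and 5 lower after quantile normalization.

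Of 21 sterol synthesis genes tested out of 22, 1 was called higher in ICM, 2 lower and 18 not called (median log2 fold -0.20). The shares, 4.8% and 9.5%, lay below the 12.3% and 9.93% of all genes. The gene called higher was Sqle, squalene epoxidase, with 6.84 and 7.26 FPKM in ICM and 2.23 and 3.75 FPKM in TE (log2 fold 1.04, SE 0.37, limma adjusted p = 0.0454). The other two were Cyp51, with 0.213 and 0.380 FPKM in ICM and 2.63 and 1.09 FPKM in TE (log2 fold -1.09, SE 0.40, limma adjusted p = 0.0478), and the sterol reductase gene Tm7sf2, with 0.0785 and 0 FPKM in ICM and 1.5 and 1.64 FPKM in TE (log2 fold -1.31, SE 0.32, limma adjusted p = 0.00518). The calls of Sqle and Cyp51 ended without ICM replicate 1 (adjusted p = 0.136 and 0.199), ICM replicate 2 (0.170 and 0.123) or TE replicate 1 (0.265 and 0.338).

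Of 20 genes of endocytosis and the lysosome, 6 were called higher in ICM, 5 lower and 9 not called (median log2 fold -0.13), with 3 higher without ICM replicate 1. Ctsb, a lysosomal protease gene, had 47.5 and 41.4 FPKM in ICM and 9.99 and 15.2 FPKM in TE (log2 fold 1.76, SE 0.37, limma adjusted p = 0.00135). Npc2, which carries cholesterol out of the lysosome, had 50.4 and 45.9 FPKM in ICM and 108 and 125 FPKM in TE (log2 fold -1.26, SE 0.27, limma adjusted p = 0.00153). Cubn, on the ICM side, and Dab2 and Lrp2, on the TE side, belong to the same list.

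Of 19 cell death genes tested out of 20, 6 were called higher in ICM, 2 lower and 11 not called (median log2 fold 0.10), and without ICM replicate 2 or TE replicate 2 1 was lower. Trp53, the p53 gene, had 76.0 and 71.7 FPKM in ICM and 5.05 and 8.93 FPKM in TE (log2 fold 3.27, SE 0.29, limma adjusted p = 1.39e-07). Its target Pmaip1, which encodes the killer protein NOXA, had 28.8 and 25.8 FPKM in ICM and 0.317 and 0 FPKM in TE (log2 fold 4.62, SE 0.60, limma adjusted p = 1.33e-05). Bid, another killer of the BCL2 family, had 10.3 and 8.91 FPKM in ICM and 1.54 and 2.06 FPKM in TE (log2 fold 1.92, SE 0.38, limma adjusted p = 9.06e-04). All were higher in both ICM libraries, and so was the caspase inhibitor Xiap, with 20.3 and 18.2 FPKM in ICM and 7.39 and 4.44 FPKM in TE (log2 fold 1.58, SE 0.32, limma adjusted p = 9.74e-04). Apaf1, the scaffold that activates caspase 9, lay on the TE side with 2.30 and 1.97 FPKM in ICM and 9.79 and 6.43 FPKM in TE (log2 fold -1.52, SE 0.32, limma adjusted p = 0.00162). Mdm2, which degrades p53, was not called, at 12.3 and 8.21 FPKM in ICM and 11.3 and 11.8 FPKM in TE.

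Among 20 cell cycle genes, 4 were called higher in ICM, 1 lower and 15 not called (median log2 fold 0.35). The shares were 20% and 5%, against 12.3% and 9.93% of all genes. The higher count was 2 without TE replicate 1 and 7 without TE replicate 2, where 2 were lower. Cdk1, the mitotic kinase, had 62.1 and 77.3 FPKM in ICM and 29.9 and 31.3 FPKM in TE (log2 fold 1.15, SE 0.22, limma adjusted p = 5.67e-04), and came just under the fold limit without ICM replicate 2. Cdk4, a kinase of early G1, had 195 and 213 FPKM in ICM and 73.0 and 105 FPKM in TE (log2 fold 1.21, SE 0.24, limma adjusted p = 7.72e-04), and lost its call without TE replicate 1 (adjusted p = 0.0152, log2 fold 0.95). Its relative Cdk6 was the gene on the TE side, at 0.0437 and 0 FPKM in ICM and 1.79 and 2.20 FPKM in TE (log2 fold -1.55, SE 0.29, limma adjusted p = 6.17e-04). Cdkn1b, the inhibitor p27, had 3.20 and 3.12 FPKM in ICM and 0.470 and 0.440 FPKM in TE (log2 fold 1.51, SE 0.29, limma adjusted p = 7.13e-04).

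Of 15 stress and immediate early genes tested out of 20, 3 were called higher in ICM, 2 lower and 10 not called (median log2 fold 0.46). The higher count was 1 without ICM replicate 1 or TE replicate 1, and the lower count 1 without TE replicate 1. Ier2, an early response gene, had 30.7 and 35 FPKM in ICM and 8.16 and 14.4 FPKM in TE (log2 fold 1.51, SE 0.26, limma adjusted p = 2.68e-04), and Ddit3, a factor of the unfolded protein response, 5.07 and 4.08 FPKM in ICM and 13.8 and 13.2 FPKM in TE (log2 fold -1.39, SE 0.26, limma adjusted p = 5.13e-04). Myc, which drives growth, had 19.4 and 17.9 FPKM in ICM and 4.88 and 6.12 FPKM in TE (log2 fold 1.60, SE 0.43, limma adjusted p = 0.00906) and lost its call without ICM replicate 1 (adjusted p = 0.0624) or TE replicate 1 (0.0602). Jund, a member of the AP-1 family, had 0.369 and 0.460 FPKM in ICM and 13.5 and 1.70 FPKM in TE (log2 fold -2.15, SE 0.46, limma adjusted p = 0.00181) and came under the fold limit without TE replicate 1 (log2 fold -0.94). Junb, of the same family, was also called higher in ICM. It lost its call in 5 of the 13 other settings, with log2 folds of 0.78 to 1.24. Fos was not called, with 2.79 and 4.11 FPKM in ICM and 1.60 and 1.54 FPKM in TE, and Egr1 was below 1 FPKM in all 4 libraries. The part of handling in these levels was not tested. Of 16 ribosomal protein genes 0 were called by limma, and the median log2 fold was 0.68. An unadjusted limma p under 0.05 was reached by 5022 of the 12874 genes tested and by 7 of these 16. Without TE replicate 2, 2 were called higher.

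Markers of cells from outside the embryo were few. Of 15 blood, immune and vascular genes, 3 passed the filter, and Ptprc, Csf1r, Cdh5 and Hbb-b1 did not. The 2 called were higher in ICM: Pecam1, an adhesion protein of endothelium that the ICM also makes, had 25.3 and 25.6 FPKM in ICM and 0.424 and 0.227 FPKM in TE (log2 fold 4.32, SE 0.25, limma adjusted p = 6.99e-10), and Cd68 4.42 and 3.36 FPKM in ICM and 0.653 and 1.41 FPKM in TE (log2 fold 1.29, SE 0.34, limma adjusted p = 0.00835). The Cd68 call ended without ICM replicate 1 (adjusted p = 0.0802) or TE replicate 1 (0.0908). The blood, immune and vascular list summed to 30.7 and 30.4 FPKM in ICM and 1.64 and 2.06 FPKM in TE, of which Pecam1 was the larger part in ICM and Cd68 exceeded it in TE. Of 14 uterine genes 7 were tested, with Vim higher and Wfdc2 lower. Vim, a filament protein of stroma and many other cells, had 1.40 and 2.50 FPKM in ICM and was listed at 0 in TE (limma adjusted p = 0.00808; 0.0973 without ICM replicate 2, where 0 were higher). Without TE replicate 1, 2 uterine genes were higher. The epithelial secreted protein gene Wfdc2 had 10.3 and 12.4 FPKM in ICM and 55.4 and 54.1 FPKM in TE (log2 fold -2.18, SE 0.33, limma adjusted p = 6.07e-05), and Dcn and Col1a1, which mark stroma, were listed at 0 in all 4 libraries. The uterine list summed to 20.4 and 25.1 FPKM in ICM and 61.9 and 57.2 FPKM in TE.

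Epiblast against visceral endoderm at E5.5 gives the later levels of the same genes. At E5.5 limma called 3904 genes (30.3%) higher and 1458 (11.3%) lower in Epi, but the median log2 fold was 0.41, and after quantile normalization the median was 0.06 and the calls split into 2510 and 2329. Of the 1589 genes higher in ICM, 711 (44.7%, and 18.2% of the Epi genes) were also higher in Epi and 141 (8.9%, and 9.7% of the VE genes) were higher in VE. Of the 1278 genes lower in ICM, 306 (23.9%, and 21.0% of the VE genes) were higher in VE and 176 (13.8%, and 4.5% of the Epi genes) in Epi. The shares with opposite directions, 8.9% and 13.8%, lay below the 11.3% and 30.3% of all genes tested. After quantile normalization the 4 overlaps were 546, 202, 530 and 142, with opposite shares of 12.8% and 9.2%, against 18.1% and 19.5% of all genes. Stage, mating and RNA extraction cannot be told apart between the 2 days.

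Most primitive endoderm genes lay on the ICM side at E3.5 and on the VE side at E5.5. VE arises from primitive endoderm of the ICM, so the choice of contrasts places genes of this lineage on these sides. The list was also chosen with earlier results of these data known, so its counts are no test. All 20 were lower in Epi than in VE, and 14 of them, those higher in ICM at E3.5, were called in opposite directions on the 2 days. A difference of differences, ICM minus TE less Epi minus VE, was called above 0 for 18 of the 20, against 11.5% of all genes (24.7% were below 0; 1486 and 3182 genes, or 2200 and 2457 after quantile normalization). Gata4 had 4.58 and 7.54 FPKM in ICM and 0.0539 and 0 FPKM in TE at E3.5, and 0.152 and 0 FPKM in Epi and 17.4 and 30.4 FPKM in VE at E5.5 (difference 7.23, limma adjusted p = 5.92e-09). Fgf10 had 0.277 and 0.118 FPKM in Epi and 14.3 and 17.7 FPKM in VE, where at E3.5 it was on the ICM side (difference 8.41, limma adjusted p = 1.41e-10). Aqp8 did the same with 0.283 and 0 FPKM in Epi and 7.90 and 32.4 FPKM in VE (difference 10.19, limma adjusted p = 1.55e-09).

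Tdgf1 kept its side, at 172 and 122 FPKM in Epi and 0 and 0.130 FPKM in VE (difference 1.55, limma adjusted p = 0.247). Upp1 kept it with a smaller fold, at 33.5 and 66.6 FPKM in Epi and 18.0 and 2.36 FPKM in VE (difference 5.70, limma adjusted p = 1.82e-05). Spic, Esrrb and Prdm14, high in ICM, were not called between Epi and VE, and in the 4 libraries at E5.5 none of them exceeded the 1.37 FPKM of Spic in Epi replicate 1. Tmsb4x turned round in the other direction, with 163 and 192 FPKM in Epi and 28.1 and 2.91 FPKM in VE (difference -9.60, limma adjusted p = 1.60e-07). The Y-linked genes also differed among the E5.5 libraries, with a summed level of 42.1 and 52.1 FPKM in Epi and 0.042 and 27.4 FPKM in VE. Oocyte transcripts set Epi replicate 1 apart at E5.5. Btg4 had 14.8 and 0 FPKM in Epi, and Oosp1 41.2 and 0 FPKM, and both were listed at 0 in VE. Zp3 and Ooep were instead higher in Epi replicate 2. The 15 oocyte genes summed to 186 and 35.5 FPKM in Epi and 1.61 and 3.61 FPKM in VE. Their part in the E5.5 results and in the difference of differences was not tested.

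**Figure D5:**
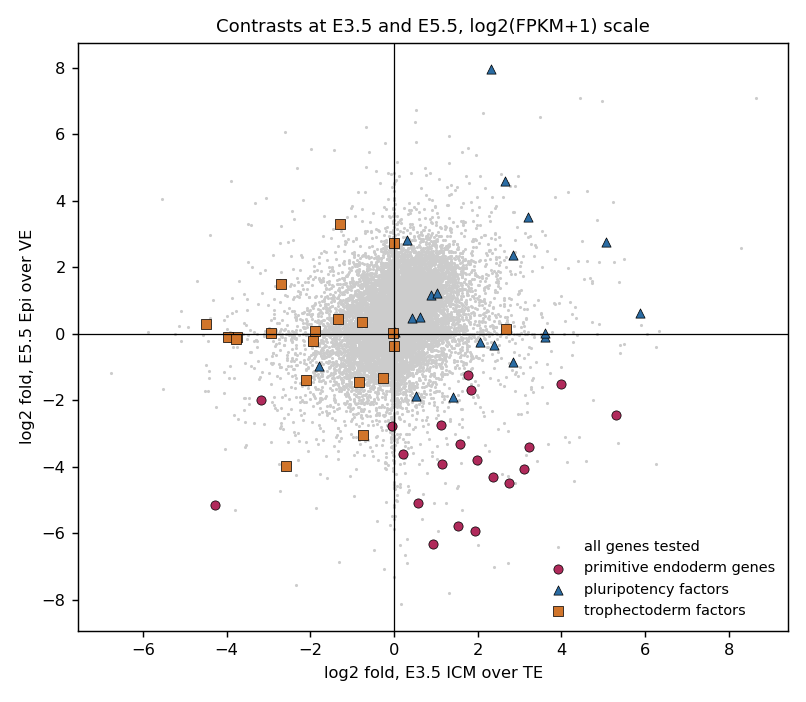
Log2 fold of ICM over TE at E3.5 (horizontal axis) and of Epi over VE at E5.5 (vertical axis) for all 12874 genes tested (grey), with primitive endoderm genes as red circles, pluripotency factors as blue triangles and trophectoderm factors as orange squares. Primitive endoderm genes lie mainly at the lower right, high in ICM at E3.5 and in VE at E5.5.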

How the data were processed

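Expression was measured by Smart-Seq2 in 30 libraries, of which 22 in vivo libraries of 11 groups, with 2 replicates each, stood in the table used. The authors deposited FPKM values, and per the submitters' processing notes the tools were CASAVA 1.8, TopHat2 2.0.11 and Cufflinks 2.0.2 with the mouse build mm9. Read counts were not given, so the depth per library and counting error are unknown. FPKM is relative to each library's total, and a few abundant genes can shift all other values. Values of 1e-06 or less (3398 values) were set to 0, 27 symbols turned into dates and 4 repeated lines were dropped, and a gene entered the fit if 2 or more of the 22 libraries reached 1 FPKM (12874 of 22586). Log2(FPKM+1) was fitted with limma 3.58.1 in R 4.3.3, with a mean for each group, a trended prior and 11 residual degrees of freedom; p-values were adjusted by Benjamini-Hochberg over all genes tested. All groups share an estimate of the spread, so the TE libraries, which differed most, are assumed to vary like the others. Exact permutation of 2 libraries against 2 cannot go below p = 0.333. Python 3.11.15, pandas 2.3.3, numpy 2.4.6 and matplotlib 3.10.9 did the rest.

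Named were the 6 markers, the 15 called genes that rose most and the 15 that fell most (where the tissue with more averaged 10 FPKM or above, without overlap), up to 4 called members of each list by adjusted p, and all DNA methylation genes. Unnamed clone symbols and pseudogenes were passed over. Some genes that the rule names are not reported here. Further list members, such as Pou5f1, Nanog, Sox2, Cdx2, Eomes and Fgfr2, were named after their values were seen. The lists and members were chosen with earlier results of these data known. Alternatives were a pseudocount of 0.1, other filters, quantile normalization, fits of fewer libraries, a replicate block, array weights and leaving out each library. Recounting each list under these settings was chosen after seeing the data. Promoters came from RefSeq, GRCm38.p6. DNA methylation, chromatin and cell line samples were not analysed here.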

Additional observations from a re-analysis of the deposited data

Results flagged for a closer look

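The named genes below lay on opposite sides on the 2 days, and the difference of differences (ICM minus TE at E3.5, less Epi minus VE at E5.5, on the log2(FPKM+1) scale) was past the threshold by limma. Genes listed at 0 in both libraries of a group were left out.

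The first set was high in ICM at E3.5 and in VE at E5.5. Some of its members mark primitive endoderm, which lies in the ICM and gives rise to VE, so for them the choice of contrasts sets these sides. The difference was 10.19 for Aqp8, 8.65 for the clotting inhibitor Tfpi, 8.41 for Fgf10, 7.87 for the cubilin gene Cubn, 7.74 for Sparc, 7.23 for Gata4 and 5.51 for Pdgfra. It was 6.80 for the Wnt acyltransferase gene Porcn, 5.52 for Apoe, 4.86 for the protease gene Ctsb and 2.37 for the matrix gene Smoc1. Log2 folds in this set lay between 1.15 (Smoc1) and 6.26 (Aqp8) for ICM over TE, and between -5.92 (Cubn) and -1.22 (Smoc1) for Epi over VE. Limma adjusted p-values ranged up to 0.00351, that of Smoc1.

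The second set was high in TE at E3.5 and in Epi at E5.5. The difference was -9.60 for the actin-binding gene Tmsb4x, -6.79 for the claudin gene Cldn4, -6.30 for Fam213b, -6.21 for Wfdc2, -3.51 for the glycolysis gene Tpi1 and -2.88 for the kinase gene Cdk6. The Y-linked gene Eif2s3y gave -6.71, with 0.191 and 0.340 FPKM in ICM and 10.5 and 15 FPKM in TE. VE replicate 1 at E5.5 had a summed Y-linked level of 0.042 FPKM, so for this gene sex of the embryos and tissue cannot be told apart. After quantile normalization the differences of all genes had a median of -0.08, against -0.39 as deposited, and 2200 were called above and 2457 below 0, against 1486 and 3182.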

How the results depend on the processing

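None of the 110 called genes named by rule changed direction in the 13 other settings, but most of these could not turn it. The fold is a difference of group means, which other filters, fewer groups, a replicate block and array weights leave unchanged. Where ICM and TE libraries do not overlap, another pseudocount or a library left out cannot turn it either. A kept direction is therefore no support for a call. Of the 7 not called, Dnmt3a, Dnmt3b and Tet2 changed direction without 1 TE library. Of the 110, 78 kept the call in all 13, 28 lost it in the fit of the 4 libraries and 15 when 1 library was left out. ICM against TE gave 1000 genes with the 4 libraries alone (593 higher, 407 lower) and 1486 with 6 libraries, E4.0 ICM added (820 higher, 666 lower), where 6 primitive endoderm genes were called higher, 2 lower and 7 junction genes lower; the cause was not tested. Leaving out a library gave 2301 to 3719 genes, 1198 to 2070 higher and 964 to 1649 lower, the most without TE replicate 2, and for the difference of differences 3669 to 5127, 1236 to 1639 above 0 and 2387 to 3488 below. Where a tissue was left with 1 library, that library was assumed to vary like the other groups. A pseudocount of 0.1 gave 2229 higher and 1558 lower, quantile normalization 1583 and 1551. At E5.5 quantile normalization gave 2510 higher and 2329 lower in Epi; the cause was not tested. Replicate numbers share no source in the labels, and deviations of same-numbered ICM and TE libraries had a correlation of -0.026. With a replicate block, 2869 genes were called (1589 higher, 1280 lower), 5366 at E5.5 and 4600 for the difference of differences; of the named genes Sqle lost its call. Depth is unknown, and genes near 1 FPKM rest on few reads.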
